A study of Mus musculus with 9 samples.

Results

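The striatum of mice given MPTP by a chronic regimen was compared with that of mice given the same total dose, 80 mg/kg, by an acute one. Of the 9 arrays of the series, 6 belong to this comparison, 3 for each regimen, chosen by their labels. The acute group received 4 intraperitoneal injections of MPTP, 20 mg/kg each and 2 h apart, and was sampled 1 week afterwards. The chronic group received 4 mg/kg once a day on 20 consecutive days and was sampled 8 weeks afterwards. The other 3 arrays come from saline controls, injected 4 times at 2 h intervals and likewise taken at 1 week. Their values are given for orientation, and no 8-week saline group is used here. Dose per injection, length of treatment and time since treatment therefore differ together between chronic and acute MPTP and cannot be told apart. Strain, age, sex, time of day and the animal behind each array are not given in the sources used here, and p-values therefore refer to the spread among these arrays, which may be technical.

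MPTP is turned by monoamine oxidase B into a toxic cation that the dopamine transporter takes up into dopamine neurons, where it blocks complex I of the respiratory chain. Those neurons project to the striatum, whose main cells are GABAergic projection neurons. Those of the direct pathway carry the dopamine receptor Drd1, and those of the indirect pathway carry Drd2. Immediate early genes are transcribed within minutes of synaptic or receptor stimulation without new protein synthesis, largely through the cAMP-responsive factor CREB and the serum response factor. Their first products are transcription factors of the Nr4a, Egr, Fos and Jun families, and others act at synapses or shut the signal off again.

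Both genes that passed the adjusted test between the regimens belong to this class, so the promoter sequence is shown for 4 of its members. Each is the 250 bases before the RefSeq start (GRCm38.p6), read 5′ to 3′ along the gene, and capitals mark the core of the cAMP response element, TGACG or its reverse complement CGTCA. Nr4a1, an orphan nuclear receptor, lies on the plus strand (chr15:101266596-101266845). Egr4 (minus strand, chr6:85513590-85513839), Fosb (minus strand, chr7:19310046-19310295) and Junb (minus strand, chr8:84978749-84978998) encode a zinc finger factor and 2 subunits of the AP-1 dimer.
Nr4a1: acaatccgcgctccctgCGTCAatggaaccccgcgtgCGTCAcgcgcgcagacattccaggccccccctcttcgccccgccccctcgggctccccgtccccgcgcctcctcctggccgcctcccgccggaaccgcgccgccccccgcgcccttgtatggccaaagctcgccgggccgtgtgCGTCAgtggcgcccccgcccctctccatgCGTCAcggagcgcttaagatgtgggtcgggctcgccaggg
Egr4: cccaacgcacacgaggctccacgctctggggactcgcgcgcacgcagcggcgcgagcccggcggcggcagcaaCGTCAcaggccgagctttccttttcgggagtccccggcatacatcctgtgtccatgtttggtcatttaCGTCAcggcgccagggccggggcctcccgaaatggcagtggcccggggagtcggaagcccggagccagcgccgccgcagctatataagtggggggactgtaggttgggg
Fosb: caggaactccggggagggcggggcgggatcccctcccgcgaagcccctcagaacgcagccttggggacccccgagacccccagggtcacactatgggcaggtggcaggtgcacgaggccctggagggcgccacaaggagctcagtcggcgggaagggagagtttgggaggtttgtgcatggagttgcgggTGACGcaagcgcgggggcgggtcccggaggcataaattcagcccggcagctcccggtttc
Junb: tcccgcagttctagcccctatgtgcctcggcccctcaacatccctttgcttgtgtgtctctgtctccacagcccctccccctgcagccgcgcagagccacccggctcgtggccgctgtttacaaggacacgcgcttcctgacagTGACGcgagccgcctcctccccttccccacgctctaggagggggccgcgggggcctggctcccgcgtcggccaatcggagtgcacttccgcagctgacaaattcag

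Nr4a1 holds 4 cores, with first bases at -233, -213, -69 and -40 from the start, Egr4 holds 2, and Fosb and Junb hold 1 each. A window was matched for 16 immediate early transcription factors, and 14 of them (87.5%) held the core on either strand. Among all 27025 genes with a window it was held by 19.8%, with no matching for base composition. The full element, TGACGTCA, which contains the core, was held by 2 of the 16 and by 1.77% of all genes. The Nr4a site AAAGGTCA was in none of the 16 and in 1.55% of all genes. The EGR site GCGTGGGCG was in 1 of them (0.622% of all genes) and the CArG box of the serum response factor in 1 (1.62%). Among activity-dependent effectors 8 of 14 genes with a window held the core. Throughout, a gene with several starts was counted if any of its windows held the motif. No window was matched for Arc, Egr1 or Egr3. Fosl2, higher after chronic MPTP without overlap, and Jun, which overlapped, held no core. Nr4a2, which had a lower chronic mean and overlapped, held 4. These matches describe the letters only.

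Per array, the signal ran over the same range (medians 6.85 to 6.90 on the log2 scale). The tissue taken was not the same on every array. Genes of cortical glutamatergic neurons were high on control 1, acute 1 and acute 2: Tbr1, a cortical transcription factor, read 9.12, 9.65 and 6.47 on acute 1 to 3 and 7.26, 7.04 and 5.69 on chronic 1 to 3. Genes of the choroid plexus were high on control 3 and acute 3: Ttr, its thyroxine carrier, read 8.41, 7.38 and 13.37 in the acute group and 9.07, 7.38 and 10.85 in the chronic group. Chronic 3 was next in Ttr, but no chronic array reached these arrays in the mean of either list. Each result is therefore also given with the array means of the cortex and choroid plexus lists as covariates where its direction or call differs, and Nr4a1 and Arc also without these arrays. The label striatum is borne out by its markers, with Penk between 13.16 and 13.56 and Drd2 between 10.88 and 12.01 on all 9 arrays. Same-numbered arrays deviated together across groups, so chronic minus acute differences are also given by pair.

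**Figure D1:**
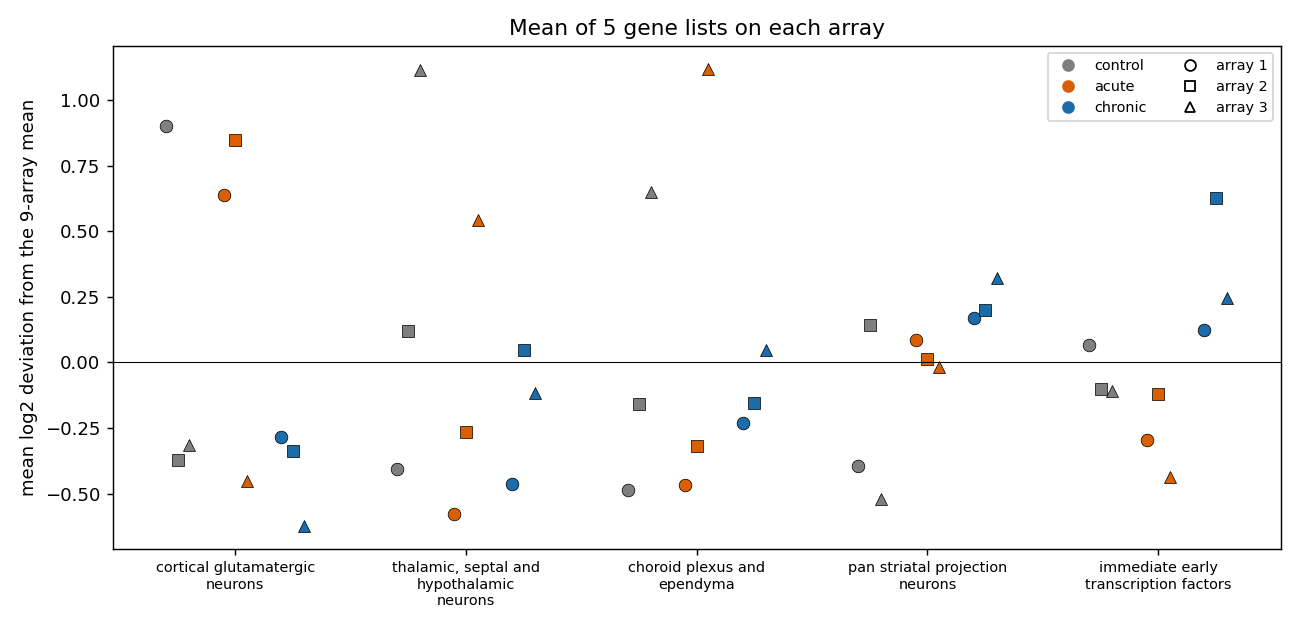
Mean of 5 gene lists on each array (log2 deviation from the mean of the 9 arrays), by group, with a symbol for each array number. Cortex genes are high on control 1, acute 1 and acute 2 (0.90, 0.64 and 0.85) and low on all chronic arrays, while immediate early transcription factors are higher on each chronic array (0.12 to 0.63) than on any acute array (-0.44 to -0.12).

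After chronic MPTP, Nr4a1 and Arc, an activity-induced synaptic protein, were higher than after acute MPTP. They were the 2 of 16335 tested probe sets (0.0122%) that passed an adjusted p of 0.05 in limma, and both were higher (0.0122% of tested probe sets in that direction). At an unadjusted p under 0.05 there were 837 probe sets (5.12%), of which 386 were higher (2.36%) and 451 lower (2.76%), so that 46.1% of them were higher. That share was 56.9% when each array was centred on its median. With the array number as a block, 2278 probe sets (13.9%) reached that p and 2 again passed the adjusted threshold (0.0122%), now Nr4a1 and Tiparp. With the block fitted to only the 6 chronic and acute arrays they were Nr4a1 and Arc. A difference of at least 1.5-fold with p under 0.05 was reached by 87 probe sets (0.533%). The 3 chronic and 3 acute arrays did not overlap for 1409 (8.63%), 590 higher (3.61%) and 819 lower (5.01%). Taking 1 probe set per gene, 6804 of 14880 genes (45.7%) were higher, with a median of -0.02. These values are the background for every list below.

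The Nr4a family of nuclear receptors, which act without an established ligand, held the smallest p. Nr4a1 read 8.57, 8.69 and 8.71 after acute dosing and 10.63, 11.31 and 11.18 after chronic dosing, with 9.98, 9.94 and 9.96 on the control arrays. Every chronic array was above every control array, and every acute array below. The difference between chronic and acute was 2.38 ± 0.16 (SE, n = 3 per group) on the log2 scale, 5.22-fold, with adjusted p = 0.0013 in limma. It was 2.06, 2.62 and 2.47 within the 3 pairs. An exact two-sided permutation test of 3 against 3 arrays gave p = 0.1, the smallest it can give. With the tissue covariates the difference was 2.45, but the adjusted p was then 1.00. It was 2.33 (adjusted p = 1) when the 3 arrays with cortex signal were dropped, a fit with a single acute array, and 2.41 (adjusted p = 0.0747) when the 2 with choroid plexus signal were dropped. Over all alternatives the adjusted p ran from 3.6e-05 to 1.

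Nr4a3, the third member of the family, read 8.09, 7.90 and 6.82 under the acute regimen and 8.50, 9.46 and 8.70 under the chronic regimen. The arrays did not overlap, and the difference was 1.29 ± 0.34 (adjusted p = 0.877 in limma). Nr4a2 stood apart from both. It is also a transcription factor of dopamine neurons and is transcribed in cortex. On the acute arrays it read 10.68, 10.76 and 6.94 and on the chronic arrays 8.91, 9.11 and 7.57, so that the arrays high in cortex genes were high in Nr4a2 as well. Its difference was -0.93 ± 0.99, and -0.53 with the tissue covariates. When control 1, acute 1 and acute 2 were dropped, the difference was 1.59, but only acute 3 then stood for the acute group. The Nr4a2 reading of acute 3 was the lowest of any array. When control 3 and acute 3, high in choroid plexus genes, were dropped instead, the difference was -2.19. The sign of the Nr4a2 difference therefore depended on which acute arrays were kept. In bulk tissue, fewer cells of a type and less RNA per cell cannot be told apart.

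**Figure D2:**
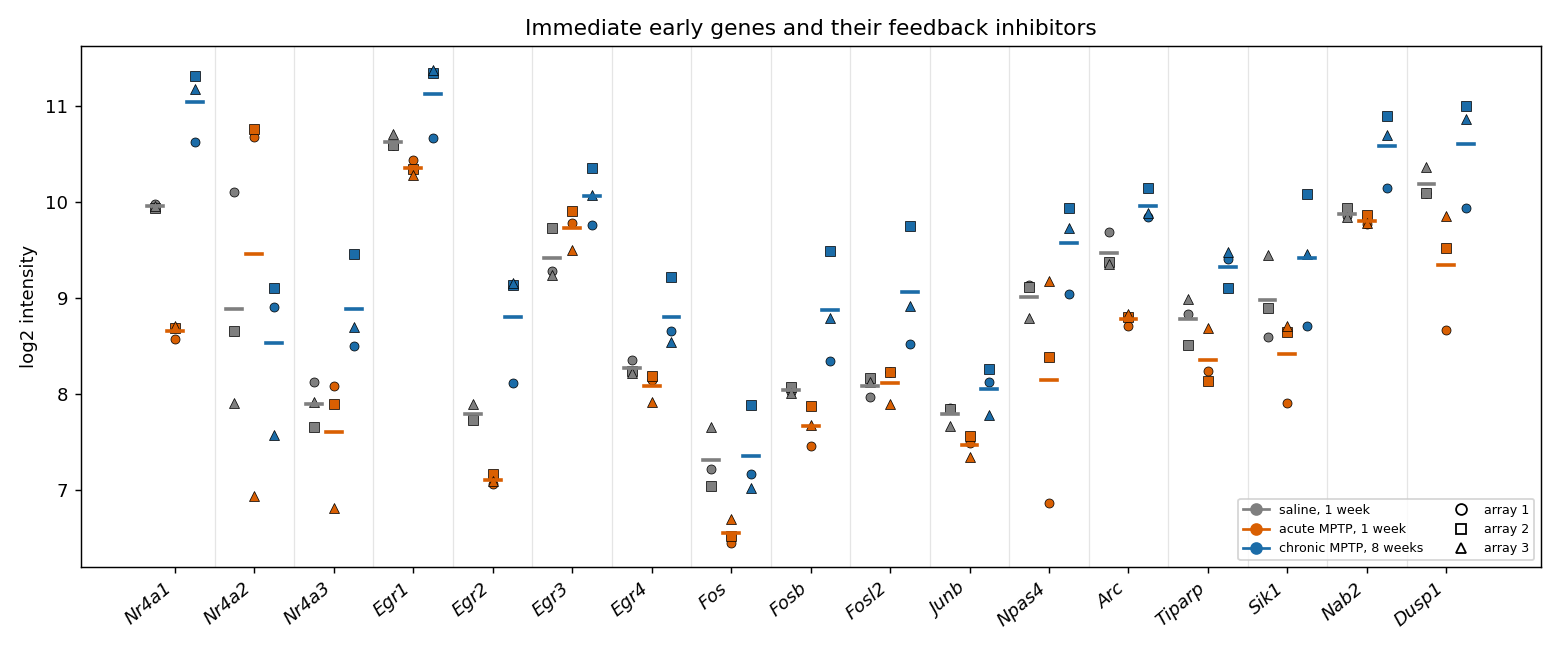
Log2 intensity of 17 immediate early genes and inhibitors on the 9 arrays, by group (colour), array number (symbol) and group mean (bar). Nr4a1 is at 8.57 to 8.71 on the acute arrays and at 10.63 to 11.31 on the chronic arrays, while Nr4a2 overlaps widely.

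The Egr factors are zinc finger proteins that carry activity signals to later genes. Egr2 read 7.06, 7.17 and 7.10 after acute MPTP and 8.12, 9.13 and 9.16 after chronic MPTP, against 7.75, 7.74 and 7.90 in controls. All chronic arrays were above all others, with chronic 1 well below chronic 2 and 3. The difference was 1.70 ± 0.24 (adjusted p = 0.295 in limma), and without chronic 1 it was 2.04 with adjusted p = 1.4e-04. Egr1 read 10.44, 10.35 and 10.28 in the acute group and 10.67, 11.34 and 11.38 in the chronic group, a difference of 0.77 ± 0.17 that passed only without chronic 1 (1.00, adjusted p = 0.0254). In Egr4 the acute arrays lay at 8.15, 8.19 and 7.92 and the chronic arrays at 8.66, 9.22 and 8.55, with no overlap and a difference of 0.72 ± 0.17. Egr3 overlapped between the groups, at 0.33 ± 0.19, and was -0.10 with the tissue covariates. Nab2, a corepressor that Egr proteins induce and that then silences them, read 9.78, 9.86 and 9.78 after acute dosing and 10.15, 10.90 and 10.70 after chronic dosing. Its difference was 0.77 ± 0.17, and without chronic 1 it passed as well (0.99, adjusted p = 0.0278).

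AP-1 is formed by a Fos and a Jun protein. Fosb, whose truncated product accumulates in the striatum under lasting stimulation, read 7.46, 7.87 and 7.68 after acute MPTP and 8.34, 9.49 and 8.79 after chronic MPTP. The difference was 1.20 ± 0.24 (adjusted p = 0.877 in limma), and within pairs 0.88, 1.61 and 1.11. Fos read 6.45, 6.52 and 6.70 against 7.17, 7.89 and 7.02, and Fosl2 8.23, 8.23 and 7.89 against 8.53, 9.75 and 8.92. Both were without overlap, with differences of 0.80 ± 0.23 and 0.95 ± 0.26. For Fos the controls, at 7.23, 7.04 and 7.66, overlapped the chronic arrays. Junb, the partner in many of these dimers, was higher by 0.59 ± 0.13 (7.49, 7.57 and 7.34 against 8.12, 8.26 and 7.78). Jun read 9.06, 9.29 and 9.28 under the acute regimen and 9.16, 9.47 and 9.28 under the chronic regimen, a difference of 0.10 ± 0.16.

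The list of immediate early transcription factors had 22 members, of which 21 were bright enough to be tested and 18 were higher after chronic MPTP. Their median was 0.59, against -0.02 over all genes. Unadjusted p in limma was under 0.05 for 12, all higher, against 2.36% of all tested probe sets in that direction. The arrays did not overlap for 10, all higher as well, against 3.61% of all tested probe sets in that direction. Without chronic 2 the median was 0.39. It was 0.63 with the tissue covariates, 0.57 with the cortex-rich arrays dropped and 0.53 with the choroid-rich arrays dropped. Npas4, a factor specific to neurons and induced by calcium entry, was among the 12 but overlapped: acute 3 read 9.18, above chronic 1 at 9.04, while acute 1 read 6.86. Atf3, a stress-induced factor, differed by 0.39 ± 0.17, and Btg2, an antiproliferative coregulator, by 0.68 ± 0.27. For Btg2 control 1 and control 3 (8.34 and 8.41) were above 2 of the 3 chronic arrays (7.62, 8.67 and 7.94). The other 6 tested members, Fosl1, Klf4, Klf10, Maff, Nfil3 and Crem, overlapped between the regimens and lay between -0.08 and 0.26. Ier2 lay below the brightness filter.

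Effector genes that neurons induce with these factors were less uniform: 12 of 20 were higher, with a median of 0.10. Arc read 8.71, 8.80 and 8.84 in the acute group and 9.85, 10.15 and 9.89 in the chronic group, with 9.69, 9.38 and 9.36 in controls. The difference was 1.18 ± 0.12 (2.27-fold, adjusted p = 0.0288 in limma), and 1.14, 1.35 and 1.05 within pairs. It kept its size but not its call with the array number as a block (adjusted p = 0.0619, but 0.0416 with the block and only 6 arrays), with the tissue covariates (1.42, adjusted p = 1.00), with the cortex-rich arrays dropped (1.13, adjusted p = 1) and with the choroid-rich arrays dropped (1.21, adjusted p = 0.289). Leaving out control 2 or 3, acute 1, 2 or 3, or chronic 2 or 3 gave an adjusted p from 0.0656 to 0.264. Over all alternatives it ran from 0.0173 to 1.

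Tiparp, an ADP-ribosyltransferase, read 8.24, 8.14 and 8.69 after acute dosing and 9.41, 9.10 and 9.48 after chronic dosing. The chronic arrays were above the acute ones in all 3 pairs, by 1.17, 0.96 and 0.79. Its difference of 0.97 ± 0.18 had adjusted p = 0.789 in limma, and 0.0338 with the array number as a block, but 0.0724 with the block and only the 6 chronic and acute arrays. Rgs2, which shortens signalling by Gq-coupled receptors, read 9.97, 9.72 and 9.93 against 10.38, 10.49 and 10.53, 0.59 ± 0.10 higher, and 0.38 with the covariates. Sik1, a kinase that CREB induces and that restrains CREB's coactivators, was 0.99 ± 0.36 higher with overlap, and the matricellular protein Ccn1 0.55 ± 0.17 higher without. Bdnf, a neurotrophin delivered to the striatum mainly from cortex, was dim and 0.34 ± 0.13 lower, with acute 3 and chronic 1 both at 6.14. Its difference was -0.17 with the covariates and -0.12 without the cortex-rich arrays, a fit with a single acute array. Nrn1, a neuritin of cortical neurons, was 1.66 ± 0.52 lower, and 0.14 higher with the tissue covariates, one of which includes it. The other 13 tested effectors overlapped between the regimens, with differences from -0.27 to 0.23.

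Feedback inhibitors of the MAP kinase pathway, which immediate early signalling switches on, lay on the same side: 12 of 13 tested were higher, with a median of 0.28, and 0.42 without chronic 1. The arrays did not overlap for 6, all higher, against 3.61% of all tested probe sets in that direction. They were Dusp1, Dusp5, Dusp6, Dusp14 and Spry2, and Nab2, which this list also holds although it acts on Egr proteins and not on the kinases. Dusp1, a phosphatase of MAP kinases in the nucleus that was singled out after its values were seen, read 8.67, 9.52 and 9.86 under the acute regimen and 9.94, 11 and 10.87 under the chronic regimen. Its difference was 1.26 ± 0.33, with 10.10, 10.09 and 10.37 in controls. In Dusp5, a phosphatase specific for ERK, the groups read 7.48, 7.39 and 7.46 against 7.71, 8.16 and 7.89, a difference of 0.48 ± 0.11. Dusp2 was below the brightness filter.

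**Figure D3:**
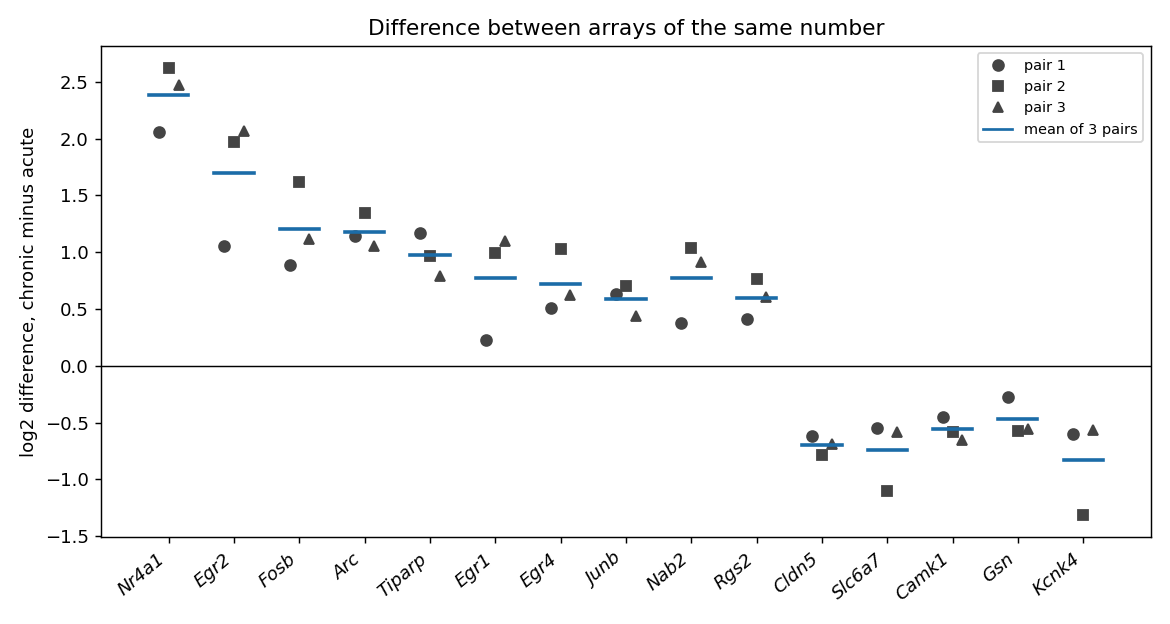
Chronic minus acute log2 difference for arrays of the same number (symbols) and the mean of the 3 pairs (bar), for 15 genes. Nr4a1 lies between 2.06 and 2.62, and Cldn5 between -0.78 and -0.62.

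Genes that mark striatal projection neurons were mostly higher by small amounts. Of 21 members shared by both pathways 20 were higher (median 0.21). The arrays did not overlap for 10, all higher, against 3.61% of all tested probe sets in that direction. Unadjusted p in limma was under 0.05 for 2 of the 21, both higher, against 2.36% of all. All 9 direct-pathway members (median 0.29) and all 10 indirect-pathway members (median 0.17) were higher. None passed the adjusted threshold, and with the tissue covariates the medians were -0.40, -0.23 and -0.11. Dropping the cortex-rich arrays, which leaves a single acute array, gave 0.24, 0.36 and 0.21. Dropping the choroid-rich arrays gave 0.18, 0.28 and 0.32. On the control arrays the shared list lay lower on control 1 and control 3 (-0.39 and -0.52 from the 9-array mean) than on control 2 (0.14). Drd2 read 11.53, 11.40 and 11.45 in the acute group and 11.70, 12.01 and 11.94 in the chronic group. The arrays did not overlap, and the difference was 0.42 ± 0.16, but -0.18 with the covariates. It was 0.43 without the cortex-rich arrays and 0.42 without the choroid-rich arrays. Drd1 overlapped (10.67, 10.49 and 10.48 against 10.64, 10.61 and 11.12), at 0.24 ± 0.17, and at -0.25 with the covariates. Sv2c, a synaptic vesicle protein, and Strip2, a scaffold subunit, differed by 0.43 ± 0.14 and 0.42 ± 0.15, and by -0.07 and -0.05 with the covariates. Sp9, a transcription factor of indirect-pathway neurons, differed by 0.37 ± 0.17, and the mitochondrial serine carrier Sfxn1 by 0.24 ± 0.11. Eya1, a transcriptional coactivator in the direct-pathway list, differed by 0.27 ± 0.14 (-0.04 with the covariates).

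Neuropeptides distinguish the pathways. Penk, the enkephalin precursor of the indirect pathway, read 13.42, 13.27 and 13.41 after acute dosing and 13.56, 13.43 and 13.55 after chronic dosing, 0.15 ± 0.10 higher. Tac1, the substance P precursor, and Pdyn, the dynorphin precursor, of the direct pathway, differed by 0.38 ± 0.25 and 0.29 ± 0.29 with overlap. With the covariates Penk and Pdyn were at -0.15 and -0.18. Dopamine receptor and cAMP signalling genes were higher in 13 of 19, with a median of 0.12, and of -0.25 with the covariates. Pde4b, a phosphodiesterase that ends cAMP signals, read 10.45, 10.55 and 10.61 against 10.72, 10.71 and 10.70, a difference of 0.17 ± 0.09.

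Genes of dopamine neurons can reach striatal samples as RNA in axons or from scarce local cells. Th, the rate-limiting enzyme of dopamine synthesis, read 7.34, 7.94 and 8.02 under the acute regimen and 7.48, 8.61 and 8.36 under the chronic regimen, and 7.14, 8.51 and 8.27 in controls. The spread between array numbers exceeded that between groups. Its difference was 0.38 ± 0.39, and -0.37 with the tissue covariates. Within the 3 pairs it was 0.15, 0.66 and 0.33, and with the array number as a block the standard error was 0.13 (unadjusted p = 0.0212, adjusted p = 0.295 in limma). Slc6a3, the dopamine transporter, was near the dim end at 6.29 to 6.74 on all arrays, with a difference of 0.18 ± 0.10. Slc18a2, the vesicular monoamine transporter, was 0.27 ± 0.27 lower, and 0.15 higher with the covariates. Ddc, the next enzyme after Th, differed by 0.15 ± 0.23, and by -0.31 without the arrays high in cortex genes. Over the whole list 5 of 12 were higher and 7 lower, with a median of -0.07. It was 0.04 without acute 1 and -0.17 without chronic 1. Pitx3, a transcription factor of midbrain dopamine neurons, was 0.20 ± 0.13 lower.

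None of the genes lower after chronic MPTP passed the adjusted threshold in limma. The 12 genes named here were taken by p among those whose chronic and acute arrays did not overlap, with small nucleolar RNAs and symbols that are clone names passed over, and each had an adjusted p of 0.877. Slc6a7, the proline transporter of excitatory terminals, read 8.60, 9.02 and 8.70 in the acute group and 8.05, 7.92 and 8.12 in the chronic group. It was 0.74 ± 0.15 lower, and its controls, at 8.99, 8.69 and 9.15, were also above all chronic arrays. Kcnk4, a mechanosensitive potassium channel, read 8.14, 8.73 and 8.09 against 7.54, 7.42 and 7.53, a difference of -0.83 ± 0.20. With the tissue covariates these differences were -0.34 and -0.15. Casr, the calcium-sensing receptor, read 6.79, 6.55 and 6.75 against 6.17, 6.33 and 6.06, a difference of -0.51 ± 0.10.

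In Camk1, a calmodulin-dependent kinase, the acute arrays lay at 8.12, 8.31 and 8.09 and the chronic arrays at 7.67, 7.73 and 7.44, a difference of -0.56 ± 0.12. Gsn, the actin-severing protein gelsolin, which oligodendrocytes express strongly, read 8.99, 9.12 and 9.11 against 8.72, 8.55 and 8.55, a difference of -0.47 ± 0.11. Adap1, a brain-enriched GTPase-activating protein of Arf6, was 0.45 ± 0.10 lower, Ptprk, a receptor phosphatase, 0.50 ± 0.12 lower and Flot1, a lipid raft scaffold, 0.50 ± 0.12 lower. Thsd7b, Czib and the tetraspanin Tspan17 were lower by 0.49 ± 0.11, 0.39 ± 0.09 and 0.53 ± 0.13. With the covariates Camk1 was at -0.25, Ptprk at -0.16, Flot1 at -0.23 and Thsd7b at -0.27. Tns1, an actin linker, had 6 tested probe sets that differed in sign: the one named by its p was at -0.46 ± 0.11, and the other 5 were between 0.04 and 0.42.

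**Figure D4:**
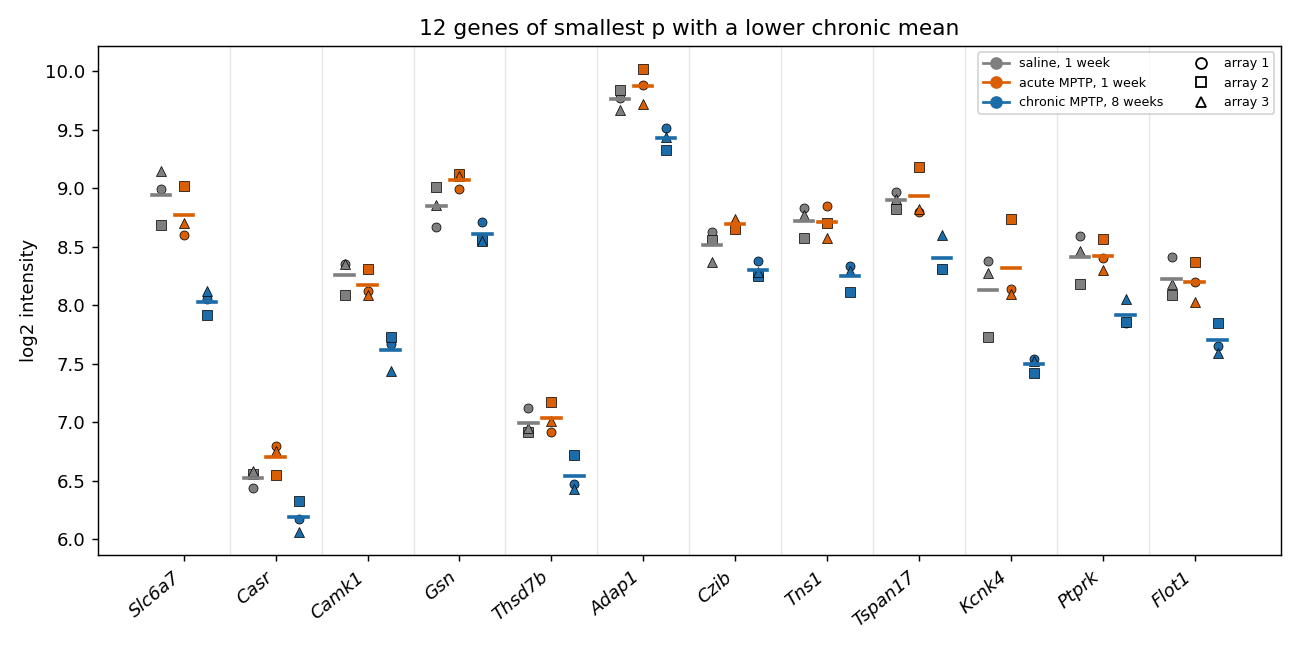
Log2 intensity on the 9 arrays of the 12 named genes with a lower chronic mean, taken by p among genes without overlap of chronic and acute arrays, small nucleolar RNAs and clone names passed over. Colours are groups, symbols array numbers and bars group means, and Slc6a7 is at 8.60 to 9.02 on the acute and 7.92 to 8.12 on the chronic arrays.

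Besides the genes above, the 12 named on the higher side by the same rule held Onecut2, Cdc42ep3, Zfp868 and Gpr137b-ps. Onecut2, a neuronal transcription factor, read 8.21, 8.06 and 8.05 after acute MPTP and 8.53, 8.81 and 8.90 after chronic MPTP, 0.64 ± 0.11 higher. Cdc42ep3, an effector of the GTPase Cdc42, read 7.87, 7.80 and 7.77 against 8.35, 8.35 and 8.48, 0.59 ± 0.11 higher, and 0.24 with the covariates. Zfp868 was higher by 0.41 ± 0.08 and the pseudogene Gpr137b-ps by 0.43 ± 0.09, or 0.20 with the covariates. Their adjusted p lay between 0.789 and 0.877 in limma.

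Markers of neighbouring tissue varied with the arrays named above. Among cortical glutamatergic genes 16 of 17 were lower (median -0.72). Of them 2 had an unadjusted p under 0.05 in limma, both lower, against 2.76% of all tested probe sets. With the array number as a block 7 did, all lower, against 1175 of all 16335 probe sets. The median of the cortex list was -1.10 without the arrays high in choroid plexus genes and 0.04 without those high in cortex genes. Slc17a7, their vesicular glutamate transporter, was 1.82 ± 1.06 lower and Tbr1 1.75 ± 0.96 lower, and both were higher (0.29 and 0.20) without the cortex arrays. Those arrays were picked for being high in these genes, so this turn, like that of the median, was built in. Only acute 3 was then left in the acute group. Cck, a neuropeptide of cortical and some striatal cells, was 1.52 ± 0.46 lower. Choroid plexus and ependymal genes were lower in 11 of 14 (median -0.21, and 0.05 with the covariates), and thalamic, septal and hypothalamic genes in 15 of 20 (-0.11, and 0.05 with the covariates). Without acute 3 these medians were 0.275 and 0.157, and without the cortex arrays, which leaves only acute 3, -0.96 and -0.64. Acute 3 was picked for its choroid plexus signal, so the turn of the choroid plexus list was built in. The members of smallest p were Ccdc153, a gene of ciliated ependyma, and the water channel Aqp1 (0.22 ± 0.13 and 0.21 ± 0.16 lower), and the hypothalamic peptides Oxt and Hcrt (0.38 ± 0.38 and 0.09 ± 0.10 lower). With the covariates Ccdc153 and Oxt were at 0.14 each. The covariates are the array means of the cortex and choroid plexus lists. Values of these lists and of their members, such as Ccdc153, with the covariates are therefore no separate check. Slc17a6, a glutamate transporter of thalamus, was high on control 3 and acute 3 (10.59 and 9.43) and at 6.42 to 8.51 on the chronic arrays. The part of these tissues in the other results was measured only through the covariates and left-out arrays.

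**Figure D5:**
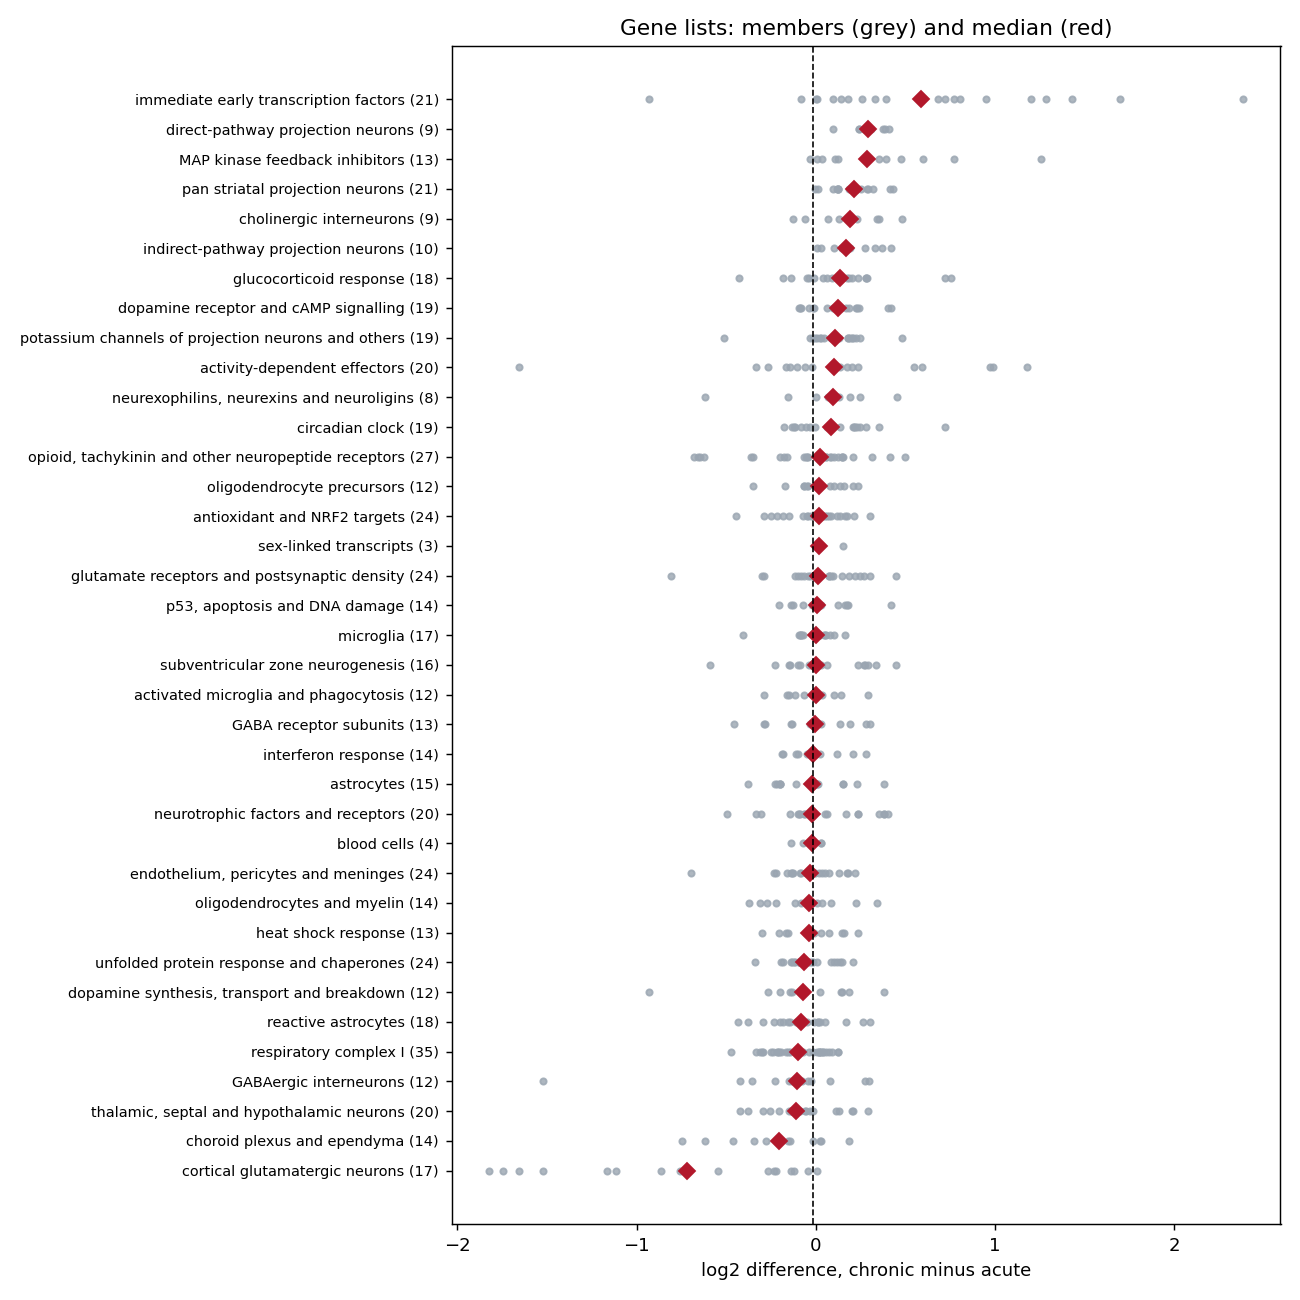
Chronic minus acute log2 difference of the tested members (grey) of each gene list and their median (red), with the number tested in brackets and the median of all genes (-0.02) as a dashed line. Immediate early transcription factors have the highest median (0.59) and cortical glutamatergic neurons the lowest (-0.72).

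Lists of striatal interneurons had small medians. Cholinergic genes were higher in 7 of 9 (median 0.19, and -0.21 with the covariates), with Chat, which makes acetylcholine, at 0.35 ± 0.21 and Slc5a7, the choline transporter, at 0.48 ± 0.28. With the covariates both were negative, at -0.43 and -0.50. GABAergic interneuron genes were lower in 9 of 12 (-0.11, and 0.00 without chronic 1), and Npy, a peptide of one of their classes, read 10.70, 10.94 and 10.50 against 10.32, 10.50 and 10.26. Genes of the neurogenic subventricular zone were split 8 to 8, Dlx6, a factor of GABAergic precursors, being 0.33 ± 0.13 higher (-0.11 with the covariates) and Stmn2, a tubulin-binding protein of growing neurons, 0.59 ± 0.19 lower (0.16 higher with the covariates).

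Glial lists had medians near that of all genes. Astrocyte genes were higher in 7 of 15 (-0.02) and reactive astrocyte genes in 7 of 18 (-0.08, and 0.04 with the covariates). Gfap, the astrocyte filament that reactive gliosis raises, read 8.86, 8.78 and 9.30 after acute dosing and 8.89, 8.33 and 8.57 after chronic dosing, 0.38 ± 0.22 lower with overlap. Aspg, an asparaginase of reactive astrocytes, was 0.23 ± 0.10 lower, the proteoglycan Srgn 0.30 ± 0.17 higher and Gli3, a factor of Hedgehog signalling in astrocytes, 0.38 ± 0.22 higher (-0.24 with the covariates). Microglial genes were split 9 to 8 (0.00, and -0.48 with the covariates). Their median was 0.05 without the cortex-rich arrays, a fit with a single acute array, and -0.01 without the choroid-rich arrays. Fcrls, a receptor of resident microglia, was 0.41 ± 0.17 lower and Gpr34, another, 0.09 ± 0.10 lower. Genes of activated microglia were split 6 to 6. Il1b, Tnf, Ccl2, Cst7 and Clec7a lay below the brightness filter. The receptor kinase Axl was 0.29 ± 0.14 higher, and the lysosomal protease Ctsd 0.29 ± 0.19 lower. Interferon-response genes were higher in 5 of 14 (-0.01), Ifit1 by 0.28 ± 0.14, and Ifi27 was 0.19 ± 0.09 lower.

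Myelin genes were higher in 5 of 14 (-0.04, and -0.36 without the arrays high in cortex genes). Myrf, the transcription factor that drives myelination, was 0.34 ± 0.17 higher without overlap, while Mag, an adhesion protein of myelin, was 0.31 ± 0.16 lower. Oligodendrocyte precursor genes were split 6 to 6 (0.02, and -0.11 with the covariates), the proteoglycan Vcan being 0.24 ± 0.10 higher and the receptor Gpr17 0.35 ± 0.16 lower, each without overlap. Vascular and meningeal genes were higher in 8 of 24 (-0.03). Cldn5, the tight junction protein of brain endothelium, was the most distant of them. It read 10.07, 9.68 and 9.60 under the acute regimen and 9.46, 8.90 and 8.91 under the chronic regimen, with no overlap and within-pair differences of -0.62, -0.78 and -0.69. The difference was -0.70 ± 0.19 (adjusted p = 0.877 in limma). Controls, at 9.62, 9.34 and 9.16, had a mean between the groups and overlapped both. Kcnj8, a potassium channel of pericytes, was 0.17 ± 0.10 higher (-0.02 with the covariates). Blood cell genes were split 2 to 2 among 4 tested (-0.02), S100a9 of neutrophils being 0.14 ± 0.11 lower and the red cell anion exchanger Slc4a1 0.07 ± 0.09 lower, and the 3 tested sex-linked genes differed by a median of 0.02.

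Pathways that set transcription by time or stress differed by small medians. Clock genes were higher in 11 of 19 (0.08, -0.01 with the covariates and 0.25 without chronic 1). Per1, a clock gene that CREB and glucocorticoids also induce, read 9.06, 9.51 and 9.61 after acute MPTP and 9.51, 10.58 and 10.25 after chronic MPTP. It was 0.72 ± 0.27 higher with overlap, and Usp2, a clock-driven protease, 0.23 ± 0.12 higher. Glucocorticoid-responsive genes were higher in 12 of 18 (0.13). Among them Plekhf1, an endosomal protein, read 6.17, 6.57 and 6.67 against 7.30, 7.0 and 7.38 (0.75 ± 0.21), and Klf9, a transcription factor, 10.95, 10.85 and 10.63 against 11.10, 11.03 and 11.15 (0.28 ± 0.10). Neither overlapped. The time of day of sampling is not given, and its part was not tested.

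Genes of the unfolded protein response were higher in 7 of 24 (-0.06), with Pdia6, a disulphide isomerase of the endoplasmic reticulum, 0.34 ± 0.10 lower and Creld2, which stress of that compartment induces, 0.14 ± 0.08 higher. Heat shock genes were higher in 5 of 13 (-0.04, and 0.06 with the covariates), the Hsp90 cochaperone Ahsa1 being 0.21 ± 0.10 lower and the mitochondrial chaperonin Hspd1 0.30 ± 0.16 lower. Subunits and assembly partners of complex I, the enzyme that MPTP's metabolite inhibits, were higher in 12 and lower in 23 of 35 (median -0.10). Of them 3 had an unadjusted p under 0.05 in limma, all lower, against 2.76% of all tested probe sets. With the array number as a block 7 did, all lower, against 1175 of all 16335 probe sets. Ndufs6 read 8.82, 9.01 and 8.91 in the acute group and 8.75, 8.23 and 8.34 in the chronic group, and Ndufv1 10.53, 10.60 and 10.56 against 10.44, 10.23 and 10.30. In both, chronic 2 and 3 lay furthest down, and the differences were -0.47 ± 0.16 and -0.24 ± 0.08. Antioxidant genes were higher in 14 of 24 (0.02, and -0.12 with the covariates). Park7, the redox-sensitive protein mutated in a familial form of Parkinson's disease, read 11.51, 11.35 and 11.49 against 11.36, 10.76 and 10.90, 0.44 ± 0.14 lower, and the mitochondrial peroxidase Prdx3 was 0.25 ± 0.11 lower. Genes of p53 and apoptosis were split 7 to 7 (0.01), with Bcl2, which restrains apoptosis, 0.42 ± 0.17 higher and the stress sensor Sesn2 0.18 ± 0.13 higher.

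Trophic factors and their receptors were higher in 9 of 20 (-0.02, and 0.08 with the covariates). Gdnf, a factor that supports dopamine neurons, did not overlap between the regimens: it read 7.06, 6.79 and 7.03 after acute dosing and 7.39, 7.17 and 7.47 after chronic dosing, with 6.94, 6.92 and 6.99 in controls. The difference was 0.38 ± 0.11. Ptn, the heparin-binding pleiotrophin, was 0.31 ± 0.11 lower, likewise without overlap. Among neurexophilins, ligands of the presynaptic neurexins, Nxph3 was higher on the acute arrays high in cortex genes, at 7.83 and 8.06, than on acute 3 (6.63) or the chronic arrays (6.88, 7.0 and 6.78). Its difference of -0.62 ± 0.42 (exact two-sided permutation p = 0.4) was 0.04 with the covariates and 0.26 without the cortex arrays. Nxph4 was at -0.15 ± 0.14, and at 0.06 and 0.11 under the same settings. Nxph2 lay below the brightness filter. Over the neurexophilins, neurexins and neuroligins 6 of 8 were higher (0.10), Nlgn2, which organises inhibitory synapses, by 0.45 ± 0.26 and Nrxn3 by 0.13 ± 0.08 (-0.01 with the covariates).

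Receptor lists had medians close to 0: 13 of 24 glutamate receptor and postsynaptic density genes were higher (0.01), 5 of 13 GABA receptor subunits (0.00, and 0.04 with the covariates) and 14 of 27 neuropeptide receptors (0.03). Grin2b, an NMDA receptor subunit, was 0.27 ± 0.12 higher. Grm2, a presynaptic metabotropic glutamate receptor, read 7.76, 8.53 and 8.41 after acute dosing and 6.87, 7.66 and 7.75 after chronic dosing, 0.81 ± 0.36 lower without overlap, but 0.08 higher with the covariates. The GABA-A subunit Gabrg3 was 0.28 ± 0.12 higher and the GABA-B subunit Gabbr2 0.46 ± 0.22 lower (0.25 higher with the covariates). Ntsr1, a neurotensin receptor found on dopamine and cortical neurons, read 7.46, 7.97 and 7.49 against 6.86, 7.44 and 6.76, 0.62 ± 0.21 lower, and the corticotropin-releasing hormone receptor Crhr1 was 0.36 ± 0.12 lower. Potassium channel genes were higher in 15 of 19 (0.11, and -0.23 with the covariates). Kcnj2, an inward rectifier of projection neurons, was 0.48 ± 0.20 higher without overlap (-0.06 with the covariates), and the axonal channel Kcna1 0.21 ± 0.13 higher.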

How the data were processed

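Total RNA of mouse striatum was measured on 9 single-colour Affymetrix arrays. The deposited values are log2 intensities of 28815 probe sets, a scale read from the values. RNA came from an RNeasy extraction, per the labels' protocols, and 200 ng was labelled with the Ambion WT Expression kit. Background correction, normalization and summary are not given in the sources used here, and values were used as deposited. Of the probe sets, 21780 had 1 gene symbol in the platform annotation, and the 16335 of these whose 9-array mean reached the 25th percentile of all (log2 5.89) were tested. limma 3.58.1 in R 4.3.3 fitted a mean per group to all 9 arrays, with 6 residual degrees of freedom, two-sided tests and Benjamini-Hochberg adjustment at a threshold of 0.05. The number of arrays limits the precision. Errors are standard errors of the fit.

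Members and gene lists were chosen with earlier results of these data known, and lists are described by counts and medians (the brightest probe set per gene) with no test. Named were up to 12 genes in each direction by p, at least 1.3-fold and without overlap (clone names, olfactory and vomeronasal receptors, microRNAs and small nucleolar RNAs passed over), the tested immediate early genes, and, for the lists other than sex-linked genes, the 2 members of smallest p, with some of the marker genes. Same-numbered arrays deviated together in all 9 pairs across groups (r from 0.157 to 0.673 across probe sets; -0.609 to 0.184 for different numbers), which is taken as pairing from the values alone. Arrays high in cortex or choroid plexus genes were identified from the values. No pair of arrays shared more than 6.01% of identical values. The code was checked on simulated data. The 7035 probe sets without exactly 1 symbol were left out; fitted separately, 3631 of them were bright enough, 0 passed in limma, and 146 had an unadjusted p under 0.05.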

Additional observations from a re-analysis of the deposited data

How the results depend on the processing

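The 115 gene differences given were recomputed under 21 alternatives where the filter allowed, in 2393 values. Of these 2341 kept direction and side of the threshold, 32 turned in sign, 16 lost and 4 gained the call. None of the 115 turned in sign on leaving out a single array. Genes given only by their array values, such as Ttr and Slc17a6, are not among the 115. With control 3 and acute 3 left out, Ttr went from -0.62 to 1.205 and Slc17a6 from -0.43 to 0.52. With tissue covariates Th was -0.37, Slc18a2 0.15, Drd1 -0.25, Drd2 -0.18, Penk -0.15, Pdyn -0.18, Nxph3 0.036, Nxph4 0.056, Egr3 -0.10, Nrn1 0.14, Sv2c -0.073, Strip2 -0.046, Slc5a7 -0.50, Chat -0.43, Stmn2 0.16, Dlx6 -0.11, Nrxn3 -0.0064, Kcnj2 -0.061, Eya1 -0.041, Oxt 0.14, Ccdc153 0.14, Gli3 -0.24, Kcnj8 -0.024, Grm2 0.084 and Gabbr2 0.25. Without the 3 arrays high in cortex genes Ddc was -0.31, Nr4a2 1.59, Nxph3 0.26, Nxph4 0.11, Slc17a7 0.29, Tbr1 0.20 and Slc4a1 0.0010.

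The 2 probe sets past the threshold in limma were 1 without a brightness filter and with only the 6 arrays, and 0 with covariates (smallest adjusted p 0.9999, 261 with unadjusted p under 0.05), without the cortex arrays (343 with p under 0.05) and without the choroid plexus arrays (917 with p under 0.05). Leaving out single arrays gave 1 to 5, the 5 without chronic 1, and 389 (without acute 2) to 1381 (without chronic 1) with p under 0.05. It gave 56 (without chronic 3) to 195 (without chronic 1) at 1.5-fold, with 182 without acute 3 and 139 without chronic 2. The 837 with p under 0.05 were 502 without chronic 3, 530 under the stricter filter, 2278 with the replicate block and 2624 with the block and only 6 arrays (an alternative chosen after seeing the data), where 135 reached 1.5-fold. That count was 184 without the choroid plexus arrays. The block ended the call of Arc, gave one to Tiparp and changed no other call among these genes. With the block and only 6 arrays Arc kept its call (adjusted p 0.0416) and Tiparp did not pass (0.0724).

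List medians with covariates were -0.15 for activated microglia, -0.12 for antioxidant genes, -0.12 for blood cells, -0.21 for cholinergic interneurons, -0.017 for cortex, -0.23 for the direct pathway, -0.25 for dopamine receptor signalling, 0.056 for heat shock, -0.11 for the indirect pathway, -0.48 for microglia, 0.075 for trophic factors, 0.12 for p53, -0.40 for shared projection neuron genes, -0.23 for potassium channels, 0.036 for reactive astrocytes, -0.18 for complex I, 0.48 for the subventricular zone and -0.016 for the unfolded protein response. Without the cortex arrays they were -0.96 for choroid plexus, 0.044 for cortex, -0.068 for heat shock and -0.36 for myelin, and without the choroid plexus arrays 0.019 for heat shock and 0.32 for the indirect pathway. Array weights gave 0.0069 for heat shock. The stricter filter gave -0.11 for interferon, 0.064 for trophic factors and -0.17 for reactive astrocytes. Without single arrays the medians ran from 0.018 to 0.25 for the clock, -0.17 to 0.037 for dopamine synthesis, -0.21 to 0.0025 for GABAergic interneurons, -0.044 to 0.019 for heat shock, 0.39 to 0.64 for immediate early factors, 0.12 to 0.32 for the indirect pathway, 0.24 to 0.42 for MAP kinase feedback, -0.040 to 0.056 for trophic factors and -0.083 to -0.00038 for the unfolded protein response. For choroid plexus genes that range was -0.38 to 0.275, and for thalamic, septal and hypothalamic genes -0.31 to 0.157. Quantile normalization turned the sign of the medians of activated microglia (0.019), blood cells (0.0085), glutamate receptors (-0.00043), interferon (0.025) and trophic factors (0.016). The cause of these shifts was not tested. Cortex and choroid plexus genes themselves defined the covariates and the left-out arrays, so the shifts of these lists are no separate check. With 3 arrays a group, differences of dim probe sets are limited by signal over background.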

Other observations

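In some large gene families most members lay on one side of 0. They were picked out after their values were seen and have no test, and none of their members passed the adjusted threshold in limma. Of 317 probe sets of numbered zinc finger proteins (Zfp genes, mostly DNA-binding repressors), 220 were higher after chronic MPTP and 97 lower, with a median of 0.07, and 0.08 after quantile normalization. The arrays did not overlap for 30 on the higher side and 6 on the lower, against 3.61% and 5.01% of all tested probe sets. Their mean lay at -0.07, -0.06 and 0.02 from the 9-array mean under the acute regimen and at -0.01, 0.04 and 0.10 under the chronic regimen, so that acute 3 overlapped the chronic arrays. Zfp758 read 5.77, 5.77 and 6.05 in the acute group and 6.65, 6.24 and 6.37 in the chronic group, 0.55 ± 0.14 higher.

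Of 209 probe sets of cytosolic ribosomal proteins, which build the ribosome, 43 were higher and 166 lower (median -0.16). Their mean was 0.07, -0.16 and -0.22 on chronic 1, 2 and 3, against 0.07, 0.03 and 0.03 on the acute arrays, so that chronic 1 lay level with acute 1. Many of these genes have near-identical copies, and which copy a probe set reads is uncertain. Proteasome subunits were lower in 36 of 43 (median -0.12), with means of 0.04, -0.18 and -0.09 on the chronic arrays. Precursors of microRNAs were lower in 73 of 105 (-0.09, -0.06 after quantile normalization and 0.02 with the tissue covariates). This side was not particular to them. Olfactory and vomeronasal receptors were lower in 50 of 64 (-0.06, -0.02 after quantile normalization and 0.03 with the tissue covariates).

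Small nucleolar RNAs, guides of RNA modification, were split 17 to 21 (-0.03). Snord57 read 10.39, 11.25 and 10.72 on the acute arrays, 9.96, 9.53 and 9.21 on the chronic arrays and 10.39, 10.89 and 10.55 in controls. It was 1.22 ± 0.25 lower than after acute MPTP without overlap (adjusted p = 0.877 in limma).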
